A study of Homo sapiens with 8 samples.

Results

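The genes described here are the 4 ID genes, ID1, ID2, ID3 and ID4, and 6 other genes of BMP-SMAD signaling, SMAD6, SMAD7, SMAD9, BAMBI, BMPR2 and BMP4. They were chosen by symbol, as genes with known roles in the response to BMP, with earlier results of these data already known. Shares of all genes given beside them are therefore a description and no test of enrichment. They are 10 of the 23228 genes counted. All 10 passed the filter on low counts, as did 13694 genes in all. The question was whether the ID genes moved with the other genes of the pathway.

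The samples were BT-549, an established cell line of mesenchymal triple-negative breast cancer (TNBC), a breast cancer without estrogen receptor, progesterone receptor or HER2 amplification. The cells had no engineered allele and were grown in RPMI medium with serum. They received DMSO as vehicle, EC359 (100 nM), an inhibitor of the leukemia inhibitory factor receptor LIFR, vorinostat (10 µM), an inhibitor of several histone deacetylases (HDACi), or EC359 + vorinostat at the same doses, called the combination here. RNA was taken after 24 h and each of the 4 groups had 2 libraries. One cell line is one genetic background, and the labels do not say that the 2 libraries of a group came from separate cultures, so the p-values measure the spread between these libraries only.

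BMP ligands bind a receptor complex of type I and type II serine/threonine kinases, which phosphorylates SMAD1, SMAD5 and SMAD9. These bind SMAD4 and enter the nucleus, where the ID genes are among the most direct targets. The ID proteins lack a DNA-binding domain and hold basic helix-loop-helix (bHLH) transcription factors in inactive pairs, and in breast cancer ID1 and ID3 are known for their link to self-renewal and metastasis. SMAD6, SMAD7 and BAMBI are targets too, and act back on the pathway as inhibitors.

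The libraries held 19069450 to 24759041 reads assigned to genes. VIM, ZEB1 and CDH2, which mark mesenchymal cells, were present in every library, at 2060 to 9440, 43.2 to 208 and 22.7 to 39.5 CPM (counts per 1000000 reads in genes, scaled by the TMM method). ESR1 and PGR stayed at or below 1.02 CPM and the epithelial markers CDH1 and EPCAM at or below 4.27 CPM. ERBB2, the HER2 gene, was present at 12 to 102 CPM (235 to 2184 reads), unlike the other receptor markers. The leukocyte and endothelial markers PTPRC, CD3E, PECAM1 and CDH5 had at most 15 reads in any library. In each group the replicates differed by more than counting noise. The squared difference between replicates over its counting variance averaged 2.295 for vorinostat, 7.686 for vehicle, 10.51 for the combination and 54.62 for EC359. The SD of the log2 difference over genes was 0.312, 0.349, 0.448 and 0.563 in the same order. EC359 replicates thus differed most, while all groups shared the same estimate of the spread in the tests.

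To show the DNA that the ID genes and the inhibitory SMAD genes do and do not have in common, the 2000 bases upstream of the start of each gene's canonical transcript (GENCODE, GRCh37) were searched on both strands for letters that SMAD proteins are known to bind. The GC-rich element GGCGCC was found in the windows of 7 of the 10 genes, ID1, ID2, ID4, SMAD6, SMAD7, BAMBI and BMPR2, beside 46.4% of the 19868 windows of protein-coding genes. The palindrome GTCTAGAC was found for SMAD6 and SMAD7, beside 1.19% of windows. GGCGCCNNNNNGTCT, a form of the longer BMP response element with a fixed spacing, contains the GC-rich element. This string was in none of the 10 windows and in 0.367% of all. Its variant GGAGCCNNNNNGTCT was likewise in none and in 0.639% of all. Forms with another spacing and DNA outside the windows were not searched, so a gene without a match may still have such an element. Printed here are stretches that hold the GC-rich match of ID1 and of ID4 and the palindromes of SMAD6 and SMAD7, each read 5′ to 3′ on the strand of its gene, with the match in capitals. The printed stretch of ID1 is chr20:30192102-30192157 (plus strand), with the match 965 to 960 bases upstream of the start. That of ID4 is chr6:19837068-19837123 (plus strand), with the match 508 to 503 bases upstream. It lies within the annotated span of LNC-LBCS, a gene on the opposite strand. That of SMAD6 is chr15:66994537-66994573 (plus strand), with the palindrome 12 to 5 bases upstream. That of SMAD7 is chr18:46478563-46478620 (minus strand), with the palindrome 1260 to 1253 bases upstream.
ID1: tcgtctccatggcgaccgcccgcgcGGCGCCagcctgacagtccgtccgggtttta
ID4: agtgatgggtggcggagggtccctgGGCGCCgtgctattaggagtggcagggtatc
SMAD6: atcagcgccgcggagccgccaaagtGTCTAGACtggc
SMAD7: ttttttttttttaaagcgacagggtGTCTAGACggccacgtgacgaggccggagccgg
A match is a description of these letters, and no binding was measured.

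In vehicle-treated cells the ID genes spanned a wide range. Per kilobase of canonical transcript, ID3 had the highest level of the 10 genes at 377 ± 23.3 CPM per kb (SD, n = 2), followed by ID1 at 161 ± 7.39 and ID2 at 125 ± 3.87. The level of BAMBI was 43.8 ± 3.29 CPM per kb and that of SMAD6 13.3 ± 0.491. ID4, BMPR2 and SMAD7 lay close together at 6.95 ± 0.447, 6.31 ± 0.116 and 5.75 ± 0.494 CPM per kb, and the order of these neighbours was not tested. BMP4 at 2.45 ± 0.154 and SMAD9 at 1.46 ± 0.168 CPM per kb were the lowest. Under EC359, ID1 had the highest level at 121 ± 22.9 CPM per kb and ID3 came next at 86.1 ± 19.2, whereas ID3 led in the vorinostat libraries at 915 ± 5.36 CPM per kb. In the combination ID3 and ID1 stood at 327 ± 10.2 and 314 ± 0.207 CPM per kb. One transcript length was used for each gene, so these levels are approximate. ID1 (chr20:30193086-30194318), ID2 (chr2:8818975-8824591), ID3 (chr1:23884417-23885992, minus strand) and ID4 (chr6:19837601-19842428) are short genes on 4 different chromosomes. The others are SMAD6 (chr15:66994574-67075187), SMAD7 (chr18:46446223-46477335, minus strand), SMAD9 (chr13:37418968-37495024, minus strand), BAMBI (chr10:28966439-28971861), BMPR2 (chr2:203241050-203432474) and BMP4 (chr14:54416454-54425479, minus strand), all in GRCh37.

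**Figure D1:**
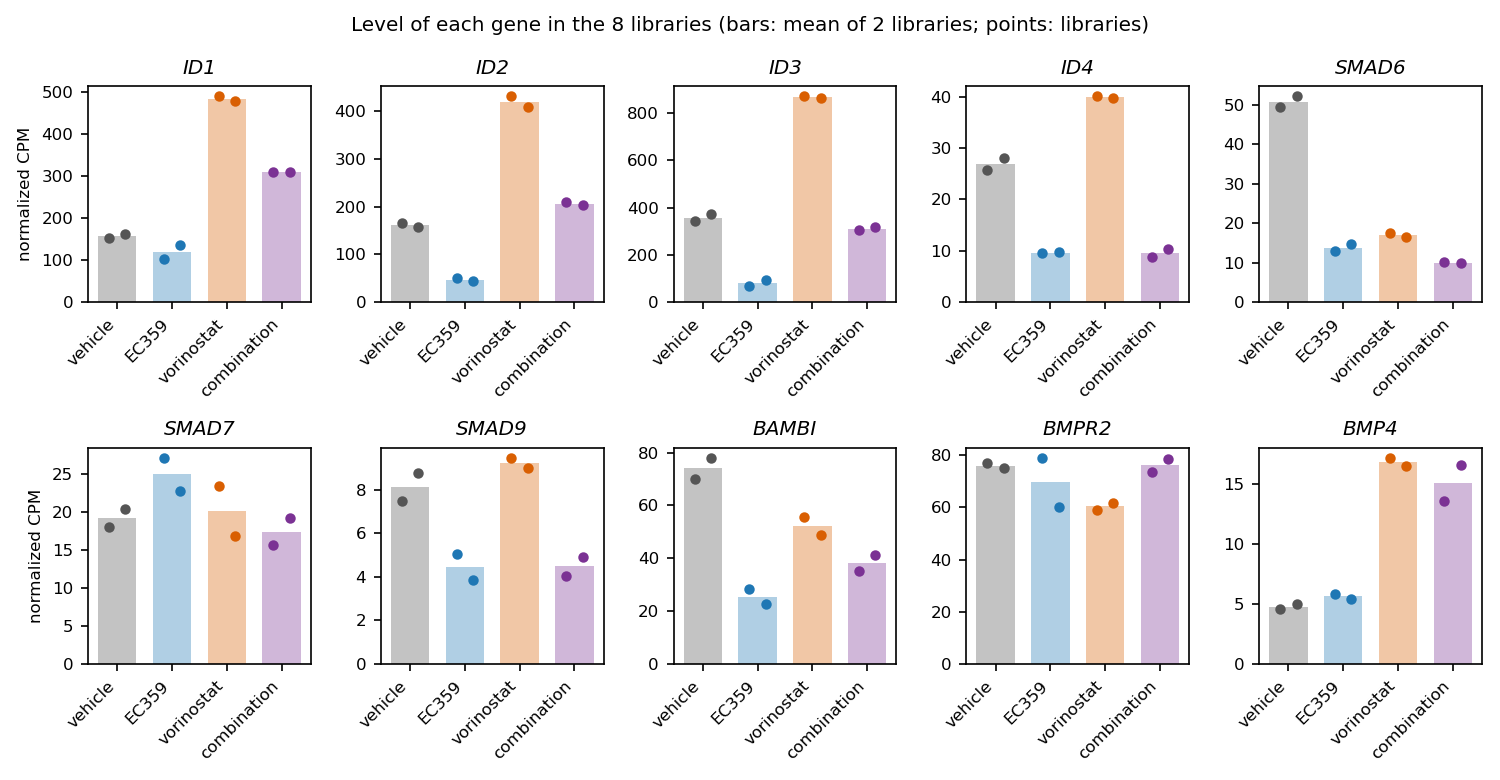
Normalized CPM (y axis, linear, from 0) of each of the 10 genes in vehicle, EC359, vorinostat and combination libraries; bars are means of 2 libraries and points are libraries. ID1, ID2 and ID3 were highest under vorinostat and lowest under EC359, SMAD6 was highest in vehicle, and BMP4 was high in both groups that received vorinostat.

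EC359 alone lowered most of the ID genes together with SMAD6 and BAMBI. A gene was called where its absolute log2 fold change exceeded 1 and its adjusted p lay below 0.01 (edgeR's quasi-likelihood test, Benjamini-Hochberg adjustment across the whole set of tested genes). Of the 10 genes, 5 fell (ID2, ID3, ID4, SMAD6 and BAMBI) and 0 rose, whereas 1.72% of all genes tested fell and 1.94% rose. By DESeq2 5 fell and 0 rose, beside 275 and 294 of the 13694 genes tested. At an unadjusted p under 0.05 in edgeR 7 were lower and 0 higher, with the share of all genes at that threshold not given. The median log2 fold change of the 10 was -1.17, beside -0.02 over all genes tested. The libraries are bulk, so fewer cells with a transcript and less of it per cell cannot be told apart.

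ID3, an ID gene that is often co-expressed with ID1, stood at 342 and 373 CPM in the vehicle libraries and 68.9 and 94.6 CPM with EC359. It fell 4.38-fold (log2 fold change -2.13, SE 0.14, adjusted p = 1.8e-05). ID2, which binds the ubiquitous E proteins as the other ID proteins do, had 166 and 158 CPM in vehicle and 50.3 and 43.4 CPM with EC359. The groups lay far apart, and ID2 fell 3.46-fold (log2 fold change -1.79, SE 0.10, adjusted p = 7.6e-06).

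ID4, the least abundant ID gene here, had 25.7 and 28.1 CPM in vehicle and 9.57 and 9.69 CPM with EC359. It fell 2.79-fold (log2 fold change -1.48, SE 0.13, adjusted p = 0.00011), with little difference between replicates. ID1 differed by less. It had 153 and 163 CPM in vehicle and 103 and 135 CPM with EC359, and although the groups did not overlap, the log2 fold change of -0.40 (SE 0.12, 95% interval -0.68 to -0.13) missed the threshold, with adjusted p = 0.052. Across the 12 alternative settings the value of ID1 lay between -0.60 and -0.22 and was not called in any, while ID2, ID3 and ID4 were called in all 12.

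Of the inhibitors, SMAD6, which blocks BMP type I receptors and SMAD1, had 49.5 and 52.2 CPM in vehicle and 12.9 and 14.7 CPM with EC359. It fell 3.69-fold (log2 fold change -1.88, SE 0.13, adjusted p = 2.1e-05). BAMBI, a transmembrane pseudoreceptor without a kinase domain, had 70.2 and 78.1 CPM in vehicle and 28.2 and 22.6 CPM with EC359, a fall of 2.91-fold (log2 fold change -1.54, SE 0.14, adjusted p = 0.00014). Neither gene overlapped between the groups. SMAD7, the inhibitory SMAD shared with TGF-beta and activin signaling, went the other way in value, with 18.1 and 20.4 CPM in vehicle and 27.2 and 22.8 CPM with EC359, and did not pass the test (log2 fold change 0.38, 95% interval -0.04 to 0.80, adjusted p = 0.2).

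The remaining genes did not pass under EC359. SMAD9, a receptor-activated SMAD that is itself a BMP target, had 7.46 and 8.78 CPM in vehicle and 5.03 and 3.86 CPM with EC359 (log2 fold change -0.86, SE 0.20, adjusted p = 0.02). BMPR2, the type II receptor, overlapped between the groups, with 77 and 75.1 CPM in vehicle and 79.1 and 60.2 CPM with EC359 (log2 fold change -0.13, 95% interval -0.42 to 0.17). The ligand gene BMP4 had 4.53 and 4.95 CPM in vehicle and 5.81 and 5.43 CPM with EC359 (log2 fold change 0.25, 95% interval -0.14 to 0.64). Neither BMP4 nor BMPR2 was called in the comparison where ID2, ID3, ID4 and SMAD6 fell.

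Vorinostat alone separated the ID genes from SMAD6. ID1, ID2, ID3 and BMP4 rose and SMAD6 fell, while the other 5 genes were not called. These 4 of 10 higher calls stand beside 16.8% of all genes tested, and the 1 lower call beside 13.3%. The median log2 fold change of the 10 genes was 0.38, beside 0.03 over all genes. Both drugs were compared with the same vehicle libraries, so the changes under each are set side by side without a correlation.

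ID1 had 490 and 479 CPM with vorinostat and rose 3.07-fold over vehicle (log2 fold change 1.62, SE 0.12, adjusted p = 5.2e-06). ID2 had 431 and 408 CPM and rose 2.59-fold (log2 fold change 1.37, SE 0.10, adjusted p = 3.3e-06). ID3 had 872 and 865 CPM and rose 2.43-fold (log2 fold change 1.28, SE 0.13, adjusted p = 3.7e-05). In all 3 genes both vorinostat libraries lay above both vehicle libraries. ID4 had 40.1 and 39.7 CPM, also above both vehicle libraries, but its log2 fold change of 0.57 (SE 0.13, adjusted p = 0.0032) was under the fold threshold.

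SMAD6 had 17.6 and 16.5 CPM with vorinostat, below both vehicle libraries, and fell 2.99-fold (log2 fold change -1.58, SE 0.12, adjusted p = 6.3e-06). The fall of SMAD6 and the rise of ID1, ID2 and ID3 kept their calls in all 12 alternative settings. BAMBI had 55.6 and 48.8 CPM and was not called (log2 fold change -0.51, SE 0.14, adjusted p = 0.01). SMAD7 overlapped vehicle with 23.5 and 16.9 CPM (log2 fold change 0.07, 95% interval -0.36 to 0.49), and SMAD9 had 9.46 and 8.97 CPM (0.18, 95% interval -0.26 to 0.62).

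BMP4 had 17.2 and 16.5 CPM with vorinostat and rose 3.56-fold (log2 fold change 1.83, SE 0.17, adjusted p = 1.4e-05), the largest rise among the 10 genes in this comparison. BMPR2 had 58.9 and 61.9 CPM and was not called (log2 fold change -0.33, SE 0.13, adjusted p = 0.047). A ligand of the pathway and 3 ID genes thus rose in libraries in which SMAD6 fell.

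**Figure D2:**
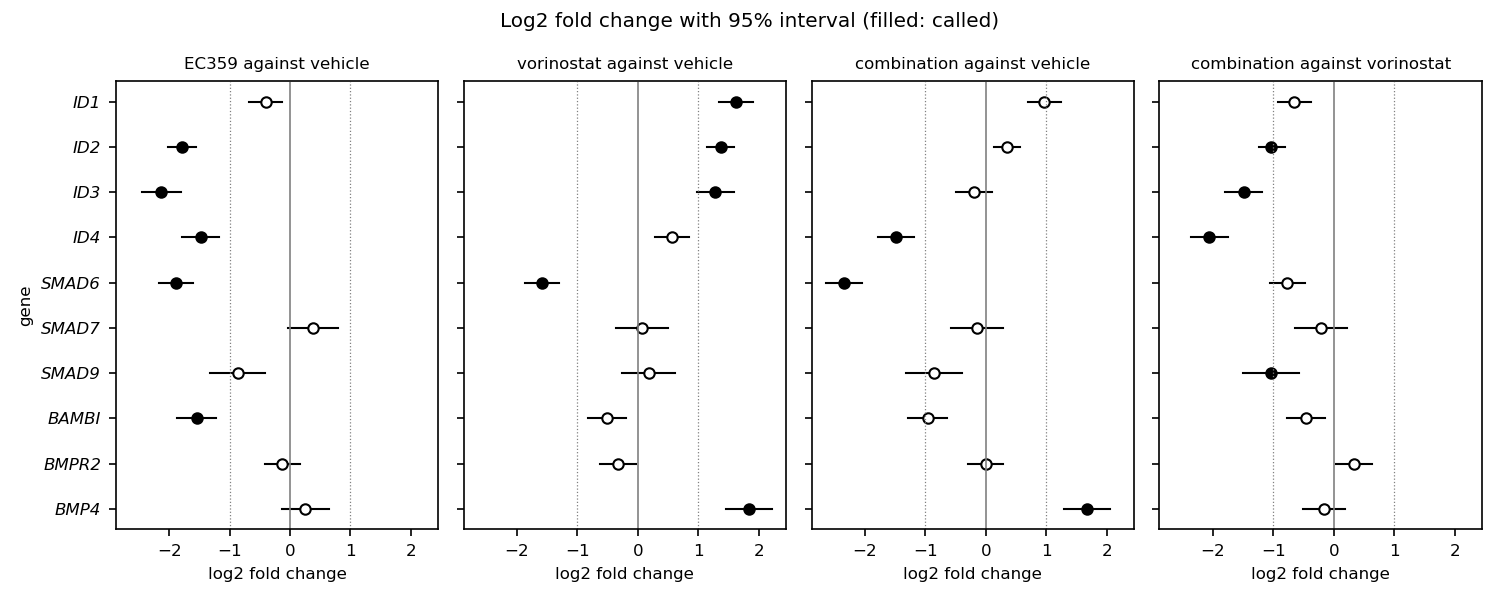
Log2 fold change (x axis) of the 10 genes (y axis) in 4 comparisons from edgeR's quasi-likelihood test; lines are 95% intervals, filled points were called and dotted lines mark the fold threshold. ID2 and ID3 lay at -1.79 and -2.13 under EC359 and at 1.37 and 1.28 under vorinostat, while SMAD6 lay at -1.88 and -1.58.

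The combination against vehicle left the ID genes spread apart. ID1 had 309 CPM in both libraries, 1.96 times the vehicle mean (log2 fold change 0.97, SE 0.12, adjusted p = 9.3e-05), just under the fold threshold. ID2 had 209 and 203 CPM (log2 fold change 0.35, SE 0.10, adjusted p = 0.0099). ID3 had 304 and 318 CPM, below but near the vehicle values (log2 fold change -0.20, 95% interval -0.50 to 0.10, adjusted p = 0.2). ID4 had 8.8 and 10.4 CPM and fell 2.81-fold (log2 fold change -1.49, SE 0.13, adjusted p = 1.1e-05). ID1 was called with upper-quartile scaling, at 1.02, and without vehicle replicate 2, at 1.01.

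SMAD6 was lowest in the combination, with 10.2 and 9.81 CPM, and fell 5.09-fold against vehicle (log2 fold change -2.35, SE 0.13, adjusted p = 6.2e-07). BAMBI had 35.1 and 41.1 CPM (log2 fold change -0.96, SE 0.14, adjusted p = 0.00025), under the fold threshold, and passed it in 4 of 12 alternative settings, with a value of -1.13 without combination replicate 2. SMAD9 had 4.04 and 4.9 CPM (log2 fold change -0.86, SE 0.20, adjusted p = 0.0045). SMAD7 at 15.7 and 19.2 CPM and BMPR2 at 73.6 and 78.7 CPM overlapped vehicle, with 95% intervals of -0.57 to 0.29 and -0.29 to 0.29.

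BMP4 had 13.6 and 16.6 CPM in the combination and rose 3.18-fold (log2 fold change 1.67, SE 0.17, adjusted p = 2.1e-05). In all, 1 of the 10 genes rose and 2 fell in the combination against vehicle, beside 19.5% and 15.3% of all genes tested, and the median of the 10 was -0.17, beside 0.07. Without combination replicate 2 the number called was 5, beside 30.8% of all genes in either direction. Shares this near the background are no result about these genes as a group.

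Addition of EC359 to vorinostat lowered ID2, ID3, ID4 and SMAD9. These are 4 of 10 genes, beside 0.876% of all genes tested that fell and 3.37% that rose. By edgeR 0 of the 10 rose. By DESeq2 4 fell and 0 rose, beside 178 and 454 of the 13694 genes tested. At an unadjusted p under 0.05 in edgeR 1 gene was higher and 7 lower, with the share of all genes at that threshold not given. The median log2 fold change of the 10 was -0.71, beside -0.01 over all genes tested. ID4 fell 4.16-fold against vorinostat alone (log2 fold change -2.06, SE 0.13, adjusted p = 1.8e-05), ID3 fell 2.79-fold (-1.48, SE 0.14, adjusted p = 0.00012) and ID2 fell 2.04-fold (-1.03, SE 0.10, adjusted p = 0.00013). The fall of ID2, ID3 and ID4 kept its call in all 12 alternative settings. ID1 fell short of the fold threshold with a log2 fold change of -0.65 (SE 0.12, adjusted p = 0.0047), both combination libraries lying below both vorinostat libraries.

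SMAD9 was 2.06-fold lower than with vorinostat alone (log2 fold change -1.04, SE 0.20, adjusted p = 0.0058), a call that was lost with the replicate number as a block (adjusted p = 0.011) and when any 1 of the vorinostat or combination libraries was left out (values from -1.23 to -0.95, adjusted p from 0.021 to 0.049). SMAD6 had a log2 fold change of -0.77 (SE 0.13, adjusted p = 0.003) and BAMBI of -0.45 (SE 0.14, adjusted p = 0.041), and neither was called. BMP4 overlapped between the combination and vorinostat (-0.16, 95% interval -0.51 to 0.19, adjusted p = 0.47). BMP4 was thus not called in the comparison in which ID2, ID3 and ID4 fell.

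Addition of vorinostat to EC359 raised ID1, ID2, ID3 and BMP4, which are 4 of 10 genes beside 19.8% of all genes tested, with a median of 0.35 for the 10 beside 0.06. The rise was 4.39-fold for ID2 (log2 fold change 2.13, SE 0.10, adjusted p = 3.4e-07), 3.81-fold for ID3 (1.93, SE 0.14, adjusted p = 3.1e-06) and 2.59-fold for ID1 (1.37, SE 0.12, adjusted p = 1.2e-05). BMP4 rose 2.68-fold (1.42, SE 0.16, adjusted p = 5.5e-05). ID4 stood apart from the other ID genes, since its libraries overlapped at 9.57 and 9.69 CPM with EC359 and 8.8 and 10.4 CPM in the combination (log2 fold change -0.01, 95% interval -0.32 to 0.31). SMAD6 had a value of -0.46 (SE 0.13, adjusted p = 0.011) and was not called.

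Whether the EC359 effect differed with and without vorinostat was tested as an interaction in the same fit, called at an adjusted p under 0.01 alone. Of the 10 genes only SMAD6 was called, beside 2.1% of all genes tested. Its EC359 effect was -1.88 without vorinostat and -0.77 with it, a difference of 1.12 on the log2 scale (SE 0.18, adjusted p = 0.0084), and the call was lost in 9 of 15 alternative settings, with adjusted p up to 0.095, among them each fit without 1 of the vehicle, vorinostat or combination libraries. Without EC359 replicate 1, 6 of the 10 genes were called, and without EC359 replicate 2, 4 were called, but 1420 (10%) and 1437 (10.1%) of all genes tested were then called too. BAMBI had a difference of 1.09 (SE 0.20, adjusted p = 0.015) and ID2 of 0.76 (SE 0.14, adjusted p = 0.013), neither called here, and both were called by DESeq2. For ID3 the difference was 0.65 (95% interval 0.22 to 1.08, adjusted p = 0.08), for ID4 -0.58 (SE 0.19, adjusted p = 0.11) and for ID1 -0.24 (95% interval -0.63 to 0.14, adjusted p = 0.46). At an unadjusted p under 0.05, 5 of the 10 genes lay above 0 and 1 below, with the share of all genes at that threshold not given.

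**Figure D3:**
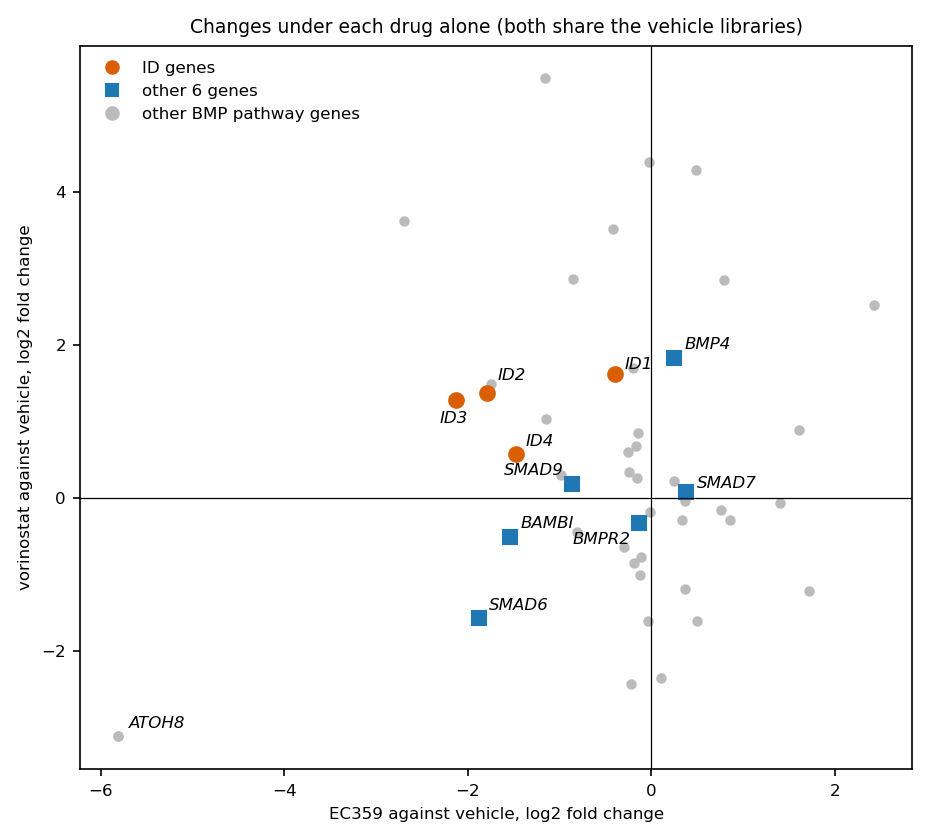
Log2 fold change of EC359 against vehicle (x axis) and of vorinostat against vehicle (y axis) for the 4 ID genes (circles), the other 6 genes (squares) and the other BMP pathway genes tested (grey); both axes share the vehicle libraries. The ID genes lie in the upper left, SMAD6 (-1.88 and -1.58) and BAMBI (-1.54 and -0.51) in the lower left, and ATOH8 farthest down at -5.81 and -3.12.

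The other genes of the pathway were taken from lists of ligands, receptors, SMADs, antagonists, intracellular inhibitors and further targets. They held 59 genes outside the 10, of which 40 passed the filter and 19, such as GREM1 and BMP7 with at most 6 and 16 reads in any library, did not. Among the 5 further target genes tested, ATOH8, a bHLH gene that is a known early target of BMP in endothelial and other cells, had 334 and 382 reads in the vehicle libraries, 9 and 4 with EC359, 47 and 35 with vorinostat and 18 and 11 in the combination. ATOH8 fell in all 3 treated groups, by 5.81, 3.12 and 4.49 on the log2 scale (adjusted p = 1.4e-05, 1.4e-05 and 2.7e-06), in the same direction as SMAD6 in each. Its EC359 effect was -5.81 without vorinostat and -1.37 with it (SE 0.37, adjusted p = 0.023), the latter not called. The interaction of ATOH8 was 4.43 (SE 0.57, adjusted p = 0.003), a value that rests on the few reads in the EC359 and combination libraries.

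HEY1, a Notch and BMP target that encodes a transcriptional repressor, rose in all 3 groups instead, from 2.36 and 2.85 CPM in vehicle to 15.3 and 12.8 with EC359, 16.3 and 13.6 with vorinostat and 20.1 and 18.2 in the combination (log2 fold changes 2.43, 2.52 and 2.87, adjusted p = 5.3e-05, 4.9e-06 and 1.6e-06). RUNX2, a transcription factor of bone formation, fell with vorinostat by 2.44 (adjusted p = 4.2e-05) and in the combination by 1.83 (adjusted p = 0.00018). The further targets thus did not share a single direction with the ID genes. MSX1 and MSX2 were not called in any comparison.

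Of the 8 other ligands tested, 4 rose with vorinostat and in the combination (BMP6, BMP8A, BMP8B and GDF6), beside 16.8% and 19.5% of all genes tested. BMP6 had 0.566 and 1.12 CPM in vehicle, 16 and 16.9 with vorinostat and 31.8 and 33.6 in the combination (log2 fold changes 4.28 and 5.27, adjusted p = 2.2e-06 and 5e-07). BMP8A had 0 reads in both vehicle libraries and 28 and 42 with vorinostat. BMP5 had 26.6 ± 1.43 CPM in vehicle, 13.4 ± 0.644 with EC359, 32.4 ± 1.36 with vorinostat and 22.8 ± 2.89 in the combination (SD, n = 2). Its log2 fold change with EC359 was -0.98 (SE 0.13, adjusted p = 0.0013), just under the fold threshold. When EC359 was added to vorinostat, the value of BMP5 was -0.51 (SE 0.13, adjusted p = 0.02). None of the 9 ligand genes tested, BMP4 among them, was called in either of these comparisons.

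Of the 8 other receptors and co-receptors tested, ACVR1, ACVR2B and BMPR1B fell with vorinostat and NEO1 and RGMA, which encode neogenin and a BMP co-receptor that binds it, rose, beside 13.3% of all genes that fell and 16.8% that rose. The type I receptor BMPR1B fell by 2.36 (SE 0.18, adjusted p = 4.9e-06), and BMPR1A fell by 1.52 in the combination (SE 0.16, adjusted p = 2.5e-05). Of the other SMADs, SMAD1 fell with vorinostat from 28.7 and 31 CPM to 9.46 and 9.99 CPM (log2 fold change -1.62, SE 0.15, adjusted p = 2e-05) and had 29.7 and 28.4 CPM with EC359. SMAD4 and SMAD5 were not called in any comparison. The libraries in which ID1, ID2 and ID3 rose under vorinostat thus had lower SMAD1, ACVR1, ACVR2B and BMPR1B. They also had higher NEO1, RGMA, BMP4, BMP6, BMP8A, BMP8B and GDF6. A link of any of these genes to the rise of the ID genes was not tested.

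Among the 8 secreted antagonists tested, FST encodes the activin and BMP binding protein follistatin. It rose with EC359 by 1.72 (SE 0.15, adjusted p = 8.5e-05) and fell with vorinostat by 1.22 (SE 0.16, adjusted p = 0.00014), the opposite of ID2 and ID3 in each. FST also fell by 2.82 (adjusted p = 7.4e-07) when vorinostat was added to EC359, where ID2 and ID3 rose. When EC359 was added to vorinostat, where ID2 and ID3 fell, FST was not called (0.12, 95% interval -0.27 to 0.50, adjusted p = 0.64). BMPER, another BMP binding protein, rose with EC359 by 1.40 (SE 0.17, adjusted p = 0.00057). Among the 8 other intracellular inhibitors, NEDD4L, a ubiquitin ligase that acts on SMADs, had 7.22 and 6.91 CPM in vehicle, 23.1 and 20.1 with EC359, 12.5 and 13.6 with vorinostat and 96.9 and 96.1 in the combination. It rose by 1.61 with EC359 (adjusted p = 5.2e-05), by 3.77 in the combination (adjusted p = 6.1e-08) and by 2.89 when EC359 was added to vorinostat (adjusted p = 1e-06). SMURF2, a further SMAD ubiquitin ligase, rose by 1.07 when EC359 was added to vorinostat (SE 0.15, adjusted p = 0.0011).

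**Figure D4:**
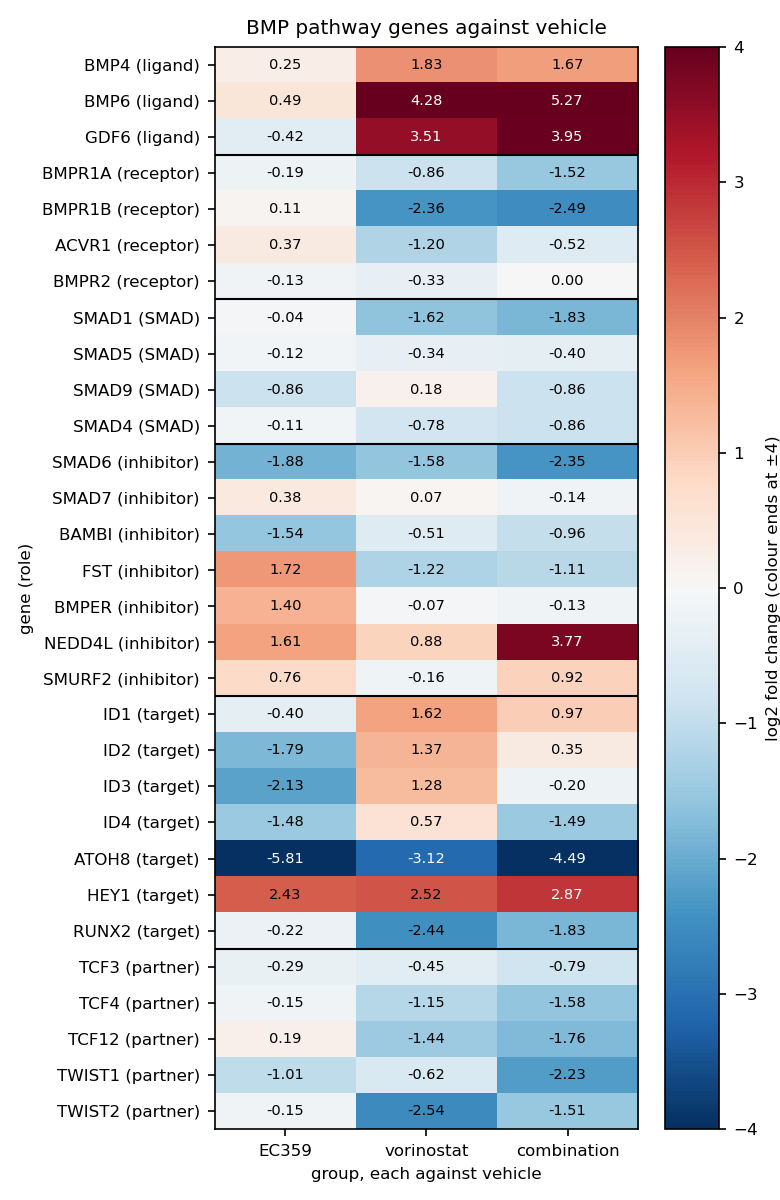
Log2 fold change against vehicle of BMP pathway genes and bHLH partners (y axis, with the role of each) under EC359, vorinostat and the combination (x axis); red is higher, blue lower, and the colour ends at 4 in each direction while the printed value does not. ATOH8 and SMAD6 are lower in all 3 columns, HEY1 is higher in all 3, and ID2 and ID3 change sign between EC359 and vorinostat.

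Genes that answer to TGF-beta through SMAD2 and SMAD3 were set beside the ID genes, since SMAD7 and BMP-SMAD signaling meet that pathway. Of 11 tested, 2 rose and 2 fell with EC359, beside 1.94% and 1.72% of all genes. With vorinostat 6 rose and 2 fell, beside 16.8% and 13.3%, and when EC359 was added to vorinostat 4 rose (among them CTGF and PMEPA1), beside 3.37%, the other 7 not being called. CTGF, a matricellular protein gene, had 307 and 328 CPM in vehicle, 202 and 220 with EC359, 796 and 826 with vorinostat and 1750 and 1800 in the combination. When EC359 was added to vorinostat, CTGF rose by 1.13 (SE 0.08, adjusted p = 2.9e-05), where ID2, ID3 and ID4 fell. PMEPA1, which encodes a membrane protein that restrains TGF-beta signaling, rose by 1.55 in the same comparison (SE 0.13, adjusted p = 7.6e-05). Other genes of the list did not run against the ID genes. CDKN2B, which encodes the CDK inhibitor p15, had 64.7 and 64.3 CPM in vehicle, 36.3 and 27.6 with EC359, 367 and 354 with vorinostat and 256 and 250 in the combination. It fell with EC359 by 1.01 (SE 0.12, adjusted p = 0.00072) and rose with vorinostat by 2.48 (SE 0.13, adjusted p = 6.2e-07), as ID2 and ID3 did, and its log2 fold change on addition of EC359 to vorinostat was -0.51 (SE 0.12, adjusted p = 0.013). COL1A1, a collagen I gene, fell with EC359 by 1.07 (SE 0.07, adjusted p = 2.3e-05), and on addition of EC359 to vorinostat its value was -0.98 (SE 0.07, adjusted p = 3.3e-05), just under the fold threshold.

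The bHLH proteins that ID proteins bind were also measured. Of 7 partner genes tested, 1 fell with EC359 (TWIST1), 3 fell with vorinostat (TCF4, TCF12 and TWIST2), and 4 fell and 1 rose in the combination. Over all genes tested, 1.72% fell with EC359, 13.3% with vorinostat and 15.3% in the combination, where 19.5% rose. TCF12 and TCF4, which encode E proteins, fell with vorinostat by 1.44 (SE 0.11, adjusted p = 4.1e-06) and 1.15 (SE 0.16, adjusted p = 0.00023), where ID1, ID2 and ID3 rose. TCF3, the third E protein gene, was not called in any comparison. TWIST1, a regulator of epithelial-mesenchymal transition, had 68.7 and 66.6 CPM in vehicle, 36.7 and 30.4 with EC359, 46.7 and 41.2 with vorinostat and 13.5 and 15.4 in the combination. It fell by 1.01 with EC359 (adjusted p = 0.00091), by 2.23 in the combination (adjusted p = 1.2e-06) and by 1.60 when EC359 was added to vorinostat (adjusted p = 7.7e-05). HES1, a repressor that acts downstream of Notch, rose in the combination by 1.64 (SE 0.19, adjusted p = 6e-05).

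Likeness of pattern was measured as the root mean square difference of log2 CPM, centred on each gene's mean over the 8 libraries, against the 9975 genes whose mean log2 CPM reached 3, and is given as a description. The gene nearest to both ID2 and ID3 was SEMA3F, a secreted semaphorin gene, at distances of 0.21 and 0.27. It had 27.9 CPM in vehicle, 6.13 with EC359, 50.3 with vorinostat and 29 in the combination. ID2 and ID3 were near neighbours of each other at a distance of 0.28, ID3 being the fifth nearest gene to ID2 and ID2 the second nearest to ID3. The other genes among the 3 nearest were PPP1R3C and ETNK2 for ID2 and DBC1 for ID3.

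ID1 and ID4 had other neighbours. The 3 nearest to ID1 were ITFG3, TPI1 and GAMT at 0.05, 0.08 and 0.09, and BMP4 came at 0.33, in place 404 of 9975. The 3 nearest to ID4 were C19orf21, PLK2 and SLC43A2 at 0.19, 0.25 and 0.39, with BAMBI in place 77 at 0.59. SMAD9, whose mean log2 CPM lay under 3, would stand ninth at 0.44 if set among these genes. Genes outside the 10 with means that low were not compared. SMAD6 lay far from ID1, ID2 and ID3, at distances of 1.36, 1.39 and 1.34 and in places 8629, 6803 and 5369. Measured over the 4 group means in place of the 8 libraries, 3 of the 3 nearest genes were shared for ID3, 2 for ID1, 2 for ID4 and 1 for ID2.

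Some counts may hold reads of other genes. ID2, ID4, BMP4 and BMPR2 overlap genes annotated on the opposite strand (ID2-AS1, LNC-LBCS, a long noncoding RNA gene and the pseudogene H3P8), and whether the counting used strand is not given in the sources used here, so reads of a gene and its antisense partner cannot be told apart.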

How the data were processed

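Total RNA of BT-549 cells was made into TruSeq libraries and sequenced as single-end reads. Per the labels and the submitters' processing notes, the authors aligned reads to hg19 with TopHat2 2.0.8b and counted them per RefSeq gene with HTSeq, whose version and strand setting are not given in the sources used here. The deposited values are raw counts, whole reads per gene in 1 file per library. The 5 HTSeq summary lines were left out of library sizes; genes took 85.15 to 88.13% of the reads that aligned once.

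Here, counts were filtered with filterByExpr (13694 of 23228 genes kept), scaled by TMM and tested with edgeR 4.0.16 (R 4.3.3) by the quasi-likelihood test, with 1 mean per group over all 8 libraries and Benjamini-Hochberg adjustment over all tested genes. A change had to exceed an absolute log2 fold change of 1 with an adjusted p below 0.01, and for the interaction the adjusted p alone was used. SEs were taken from the F statistic, and intervals are 95%. The study used DESeq; DESeq2 1.42.0, other scalings, filters and thresholds, only the libraries compared, a replicate block and leaving out each library were tried as alternatives. The code was tested on simulated data.

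The 10 genes and all lists were chosen with earlier results of these data known. By rule, all 10 genes are named with values, genes of the other lists are named where called in any of the 6 comparisons and otherwise counted (MSX1, MSX2, SMAD4, SMAD5, TCF3, BMP5, BMP7 and GREM1 are named outside it, after their values were seen), and the 3 genes nearest to each ID gene are named. Positions, transcript lengths and upstream windows come from GRCh37 with GENCODE annotation. Depth was 19069450 to 24759041 gene counts per library, and SMAD9 and BMP4 rest on the fewest reads of the 10 genes in vehicle.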

Additional observations from a re-analysis of the deposited data

Results flagged for a closer look

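The EC359 effect on SMAD6 was tested for a difference with and without vorinostat, and passed in the fit reported. It was -1.88 on the log2 scale against vehicle and -0.77 when EC359 was added to vorinostat, a difference of 1.12 (SE 0.18, adjusted p = 0.0084 by edgeR's quasi-likelihood test, n = 2 libraries per group). The difference kept its sign, from 1.01 to 1.21, but lost its call in 9 of 15 alternative settings, which were RLE scaling, total counts, the replicate block and each fit without 1 of the vehicle, vorinostat or combination libraries. SMAD6 stood at 50.8 ± 1.88 CPM in vehicle, 13.8 ± 1.3 with EC359, 17 ± 0.805 with vorinostat and 9.99 ± 0.268 in the combination (SD, n = 2).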

How the results depend on the processing

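Of 750 log2 fold changes of the 10 genes recomputed under other settings, 692 kept their direction and their side of the threshold, 14 lost a call, 21 gained one and 23 changed sign, none of them a called value. For BMPR2, combination against vehicle (0.00), the sign changed with RLE scaling (-0.01), total counts (-0.08), no filter (-0.04), DESeq2 (-0.01) and only the libraries compared (-0.03), and ranged from -0.10 to 0.01 with libraries left out. For SMAD9, combination against EC359 (0.00), it changed with RLE scaling (-0.02), total counts (-0.06), no filter (-0.06), DESeq2 (-0.02) and only the libraries compared (-0.04), and ranged from -0.21 to 0.20 with libraries left out. For ID4, combination against EC359, it was 0.07 with upper-quartile scaling and 0.02 with a filter of at least 1 CPM in 2 libraries, and -0.20 to 0.04 with libraries left out. Leaving out libraries also moved BMPR2, EC359 against vehicle, from -0.33 to 0.07 and combination against EC359 from -0.07 to 0.33, SMAD7, vorinostat against vehicle, from -0.19 to 0.28 and combination against vorinostat from -0.47 to 0.00, and the SMAD9 interaction from -0.38 to 0.03.

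The number of the 10 genes called for the combination against vehicle was 3, and 7 with no fold threshold (7718 genes or 56.4% of all then called), and 3 to 5 with a library left out (5 without combination replicate 2). The interaction count of 1, beside 2.1% of all genes, was the least stable. An adjusted p under 0.05 gave 3, for which the share of all genes is not given. The count was 0 with RLE scaling, total counts or the replicate block, beside 1.95%, 2% and 1.38% of all genes. With upper-quartile scaling it was 2, beside 2.22%, and with no filter or DESeq2 it was 3, beside 2.32% and 5.21%. It was 0 without any 1 of the vehicle, vorinostat or combination libraries, 6 without EC359 replicate 1 and 4 without EC359 replicate 2. At an unadjusted p under 0.05 the interaction count was 6 or 7 of 10 in each fit of all 8 libraries, with the share of all genes at that threshold not given. The cause was not tested. Over all genes, 288 interactions were called in the fit reported, 714 by DESeq2, 189 with the block and 56 to 1437 with a library left out, and 62.6% of the DESeq2 calls were above 0, beside 77.1%. EC359 against vehicle gave 502 calls, and 233 with only the libraries compared. Of the calls for the combination against vorinostat 79.4% were higher, and 67.6% with total counts.

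Deviations of same-numbered libraries correlated at -0.173 (EC359 with the combination) to 0.231 (vehicle with EC359) between groups. These values do not settle whether the replicate numbers mark paired libraries. The replicate block also ended the call of SMAD9 in the combination against vorinostat. A crossed pairing, chosen after seeing the data, gave 3 interaction calls among the 10 genes and 477 over all genes.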
